A study of Mus musculus with 4 samples.

Results

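Oligodendrocytes wrap axons of the central nervous system in myelin, a compacted membrane rich in a few proteins and in galactolipids. They arise from dividing precursors that carry the receptor Pdgfra, pass through a newly formed stage, and mature under transcription factors such as Olig2, Sox10 and Myrf. In the cortex they lie among the neurons and in the white matter beneath, and both precursors and mature cells are sensitive to ischaemia. The 34 genes described here were listed by their known roles in this lineage. No measured value enters the choice of the genes, but earlier results of these data were known when the list was made. The genes were found by matching the array's transcript accessions to mouse gene symbols. The brightest probe stands for each gene, so the choice of probe rests on measured intensity. All 34 were on the array, and all 34 were well above background in both channels on all 4 arrays. They are 34 of the 24565 features tested, of which 17014 had a symbol.

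RNA came from the ipsilateral cortex of mice, that is the cortex on the side of the stroke, taken 24 h after permanent MCAO. In that operation the left middle cerebral artery is closed by electrocoagulation and cut. Both groups were C57BL/6 mice, 8 weeks old, with the same operation and the same time. One group was wild type and the other carried the label Ndrg2KO, a knockout of Ndrg2, which is a gene expressed strongly in astrocytes. Each of 4 arrays held 1 knockout sample in Cy3 and 1 wild-type sample of the same replicate number in Cy5. No array had the dyes exchanged, so dye and genotype cannot be told apart for a single probe. There was no sham-operated or contralateral tissue among the samples used here, so all comparisons are between genotypes after ischaemia. Neither the deleted stretch of Ndrg2 nor the number of animals behind a sample is given in the labels. The p-values therefore measure only how these 4 pairs of samples varied, and some of that variation may be technical. In whole tissue, fewer cells of a type and less RNA per cell cannot be told apart.

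All values are log2 of knockout over wild type, after background correction and loess normalization within each array, and means are given with the SD over the 4 arrays. Between 73.6 and 74.9% of spots in the knockout channel were well above background, and 76.7 to 79.0% in the wild-type channel, with 0 saturated spots on every array. Spike-in controls had slopes of observed on expected log ratios of 0.728 to 0.739, so ratios were compressed. Ndrg2 itself read -0.22, -0.22, -0.18 and -0.11 on arrays 1 to 4, a fall of 0.18 ± 0.05 on the log2 scale (limma, adjusted p = 0.0248). Its probe stayed among the brightest, at a mean log2 intensity of 15.6, and was 1.14-fold lower. The probe therefore gave no check of the genotype, and knockout here means the samples labelled Ndrg2KO. It lost its call in 6 of 15 alternatives, among them the 3 that left out array 1, 2 or 3 (values of -0.17, -0.17 and -0.18). With median centring it was -0.81 and with the scanner software's log ratios -0.04, so its size depended on how the arrays were scaled. All 15 neuron markers were above background, as were all 10 striatal markers, which are strongest in a region beneath the cortex.

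Of the 34 genes, 5 were higher and 2 lower in the knockout samples, and 27 did not pass (limma across all features, adjusted p under 0.05). Mbp, Mal, Tspan2, Gal3st1 and Olig2 rose, by 0.16 to 0.39 on the log2 scale, and Sox10 and Bcas1 fell, by 0.49 and 0.42. Over all features tested, 8.63% were higher and 12.7% lower by the same rule, against 14.7% and 5.88% of the 34. Calls were more frequent among bright features: in the brightest decile, which held Mbp, Mal and Tspan2, 16.4% were higher and 18.0% lower. The median of the 34 genes was -0.02, and that of all features was also -0.02. The direction of the calls depended on how arrays were scaled: with median centring in place of loess, 0 were higher and 25 lower. Of all 24565 features, 6329 were then higher and 13177 lower. That setting moved the median of all features to -0.18 and that of the 34 genes to -0.37. Under it the medians of all features ran from 0.50 in the dimmest range to -0.70 in the brightest, while with loess they lay between -0.06 and 0.04 in every range.

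The 34 genes differed from most features in their spread between arrays. Their SD over the 4 arrays had a median of 0.24, against 0.10 for all features, and 23 of the 34 lay above the 90th percentile of all features. Such spread was not particular to them: the median SD was 0.35 for erythrocyte genes, 0.24 for choroid plexus and 0.23 for striatal markers. Fibroblast and mural, neutrophil and monocyte, and endothelial markers had 0.20, 0.19 and 0.18. A wider oligodendrocyte list had 0.16, microglia markers 0.15, neuron 0.12, astrocyte 0.10 and Schwann cell markers 0.08. These SDs were not compared at like brightness, and the dimmest range, log2 6 to 7, held 4504 features but 0 of the 34 genes. Values of 26 of the 34 fell on both sides of 0. The other 8 had the same sign on all 4 arrays (23.5%, against 43.8% of all features), namely the 7 that passed and Myrf. Of these, 5 were above 0 throughout (14.7%, against 18.6%) and 3 below (8.82%, against 25.1%). The medians of the 34 genes were -0.13, -0.29, 0.05 and 0.20 on arrays 1 to 4, whereas that of all features was -0.02 on each. Array 4 held the highest value of 27 of the 34 genes (79.4%, against 23.2% of all features), and array 2 the lowest of 21 (61.8%, against 25.2%). Across the 34 genes, the values of arrays 1 and 2 correlated at 0.88 and those of arrays 3 and 4 at 0.71, while the other pairs of arrays gave 0.13 to 0.35. Over all features the same pairs gave 0.73, 0.63 and 0.41 to 0.48. These correlations are across genes, which are not independent replicates.

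**Figure D1:**
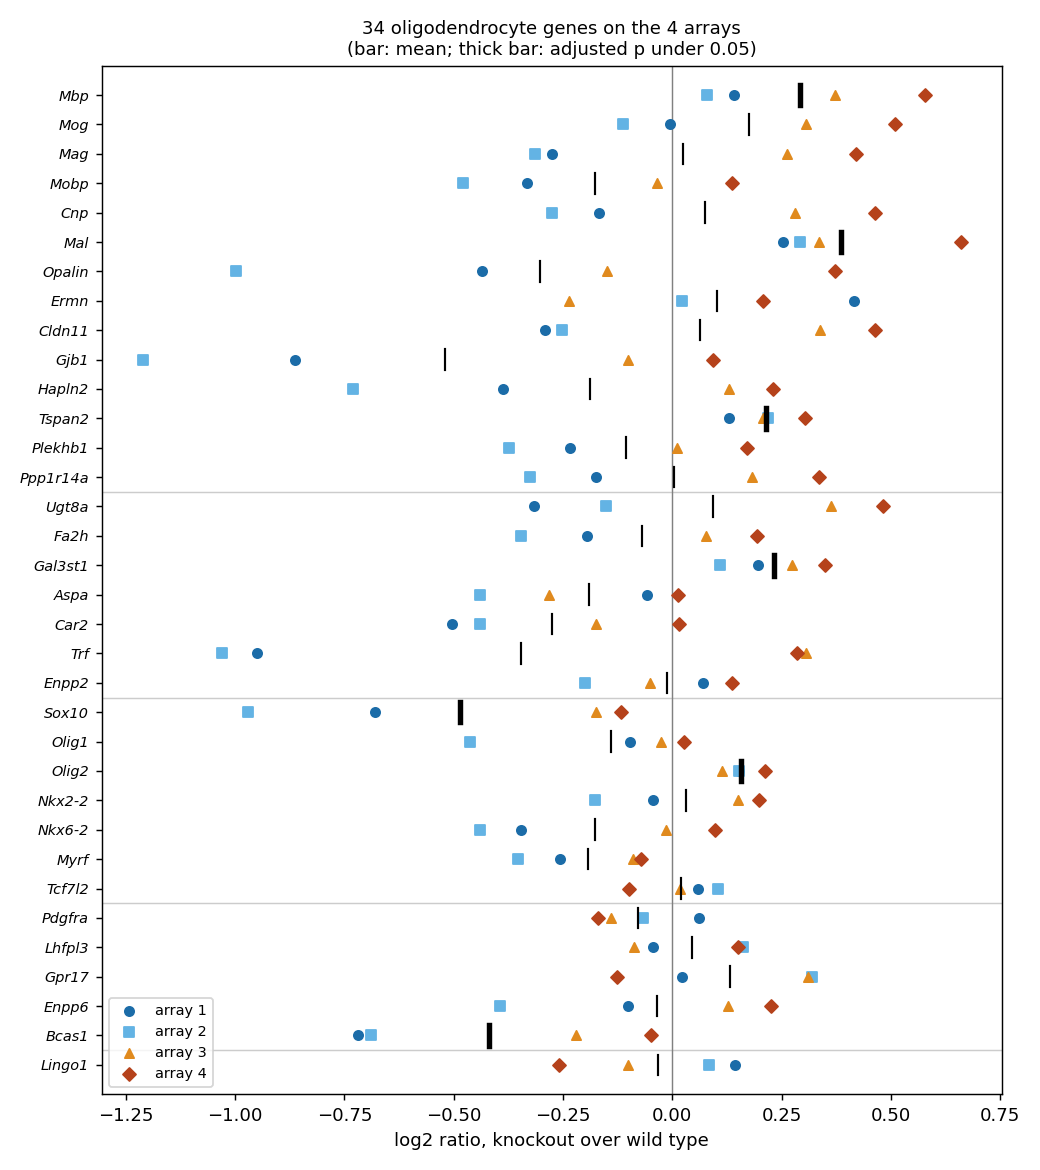
Log2 ratio of knockout over wild type (x axis) for each of the 34 genes (y axis, grouped by role), with 1 symbol per array, a bar at the mean of the 4 arrays and a thick bar where the adjusted p was under 0.05. Arrays 3 and 4 lie to the right of arrays 1 and 2 for most myelin genes, and array 4 holds the highest value of 27 of the 34.

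The structural genes of myelin rose in 3 of 14 cases and fell in none, with 11 that did not pass and a median of 0.04. Rises were thus 21.4%, against 8.63% of all features and 16.4% of the brightest decile, which held all 3. Of all features 12.7% were lower. Mal, which encodes a small membrane protein of lipid rafts in myelin, read 0.25, 0.29, 0.33 and 0.66 on arrays 1 to 4. All 4 values lay above 0, with array 4 apart from the others, and the mean was 0.39 ± 0.19 (limma, adjusted p = 0.0130). Mbp, the myelin basic protein gene, whose product holds the inner faces of the membrane together, read 0.14, 0.08, 0.37 and 0.58. It was higher on all 4 arrays, with a mean of 0.29 ± 0.23 (limma, adjusted p = 0.0450). Tspan2, a tetraspanin gene of oligodendrocytes, read 0.13, 0.22, 0.21 and 0.30, the narrowest range of the 14, with a mean of 0.21 ± 0.07 (limma, adjusted p = 0.0188). As a fold, these 3 rises came to 1.31, 1.22 and 1.16.

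Of the 3 calls, that of Mal as higher held in 14 of 15 alternatives and turned to -0.22 with median centring, where features of its brightness had a median of -0.70. Mbp lost its call when any 1 array was left out: its value was 0.34, 0.36, 0.27 and 0.20 without array 1, 2, 3 and 4. With both channels taken as separate samples its adjusted p was 0.0782 (limma). Tspan2 lost it without array 2, 3 or 4, at 0.21, 0.22 and 0.18, and with channels as separate samples (limma, adjusted p = 0.111). With median centring Mbp stood at -0.16 and Tspan2 at -0.23.

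Among the 11 structural genes that did not pass, Gjb1 had the lowest mean. It encodes connexin 32, a gap junction protein of myelinating cells, and read -0.86, -1.21, -0.10 and 0.09. Arrays 1 and 2 were far below arrays 3 and 4, and the mean of -0.52 ± 0.62 had an adjusted p of 0.107 (limma), with a 95% interval of -0.99 to -0.05. Without array 4 it passed, at -0.73 (adjusted p = 0.0449). Opalin, an oligodendrocyte membrane glycoprotein gene, read -0.44, -0.998, -0.15 and 0.37, again lowest on array 2 and highest on array 4. Hapln2, a link protein gene of the matrix at nodes of Ranvier, had the same order, at -0.39, -0.73, 0.13 and 0.23.

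Mag, Cldn11, Cnp, Mog and Ppp1r14a had values on both sides of 0. Mag, an adhesion protein gene of the inner myelin layer facing the axon, read -0.28, -0.31, 0.26 and 0.42, with a mean of 0.02 ± 0.37. Cldn11, the claudin gene of the seals between myelin turns, read -0.29, -0.25, 0.34 and 0.46, with a mean of 0.06 ± 0.39. In both genes the values on arrays 1 and 2 were below 0 and those on arrays 3 and 4 above it. Cnp, an enzyme gene of non-compacted myelin, did the same, at -0.17, -0.27, 0.28 and 0.46. Mog, an outer surface protein gene, was at 0.00, -0.11, 0.31 and 0.51, and Ppp1r14a, an inhibitor of myosin phosphatase, at -0.17, -0.32, 0.18 and 0.34. Mobp, a basic protein gene of compact myelin, and Plekhb1, a membrane traffic gene, ranged from -0.48 to 0.14 and from -0.37 to 0.17, each lowest on array 2 and highest on array 4. Ermn, the gene of the cytoskeletal protein ermin, did not: its highest value, 0.41, was on array 1 and its lowest, -0.24, on array 3.

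Genes of myelin lipids and of oligodendrocyte metabolism had 1 rise among 7 (14.3%, against 8.63% of all features), that of Gal3st1. None of the 7 fell, against 12.7% of all features. Gal3st1 encodes the sulfotransferase that makes sulfatide from galactosylceramide. It read 0.20, 0.11, 0.27 and 0.35, above 0 on all 4 arrays, with a mean of 0.23 ± 0.10 (limma, adjusted p = 0.0212). The call was lost without array 1, 3 or 4, at 0.24, 0.22 and 0.19, and with both channels as separate samples (limma, adjusted p = 0.131). With median centring the value was -0.037. Enzyme genes of earlier steps did not pass. Ugt8a, which makes galactosylceramide, read -0.32, -0.15, 0.36 and 0.48, and Fa2h, which hydroxylates its fatty acids, read -0.20, -0.35, 0.08 and 0.19. In both, arrays 1 and 2 were below 0 and arrays 3 and 4 above.

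The largest spread of all 34 genes belonged to Trf, the gene of the iron carrier transferrin, which oligodendrocytes make in the brain. It read -0.95, -1.03, 0.31 and 0.29, with a mean of -0.35 ± 0.74 (limma, adjusted p = 0.333). Its second probe gave -0.86, -0.88, 0.42 and 0.44, so both probes placed arrays 1 and 2 far below arrays 3 and 4. Car2, the carbonic anhydrase gene of oligodendrocytes and also of red cells, read -0.50, -0.44, -0.18 and 0.02, with a mean of -0.28 ± 0.24 that missed the threshold (limma, adjusted p = 0.0609) and passed at -0.37 without array 4. Aspa, whose enzyme splits N-acetylaspartate, ranged from -0.44 to 0.01. Enpp2, the autotaxin gene, which choroid plexus also expresses, ranged from -0.20 to 0.14 around a mean of -0.01.

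Of the 7 transcription factor genes, 1 rose, 1 fell and 5 did not pass. Each call was 14.3% of the 7, against 8.63% higher and 12.7% lower over all features. Sox10, which is needed for the final steps of oligodendrocyte maturation and drives myelin genes, read -0.68, -0.97, -0.17 and -0.12. It was below 0 on all 4 arrays and lowest on array 2, with a mean of -0.49 ± 0.41 (limma, adjusted p = 0.0447). Its value was -0.42, -0.32 and -0.59 without array 1, 2 and 3, each with its call lost, and it also lost the call with the scanner software's log ratios (-0.47, adjusted p = 0.108). Olig2, which specifies the lineage and is expressed at all its stages, read 0.15, 0.15, 0.11 and 0.21. This was the narrowest range of all 34 genes, with a mean of 0.16 ± 0.04 (limma, adjusted p = 0.0347). The call was lost without any 1 array, at 0.16, 0.16, 0.17 and 0.14, and with both channels as separate samples (limma, adjusted p = 0.282). With median centring Olig2 stood at -0.088.

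Olig1, the neighbour and relative of Olig2, read -0.10, -0.46, -0.03 and 0.03 and did not pass. Myrf, which switches on myelin genes in maturing cells, was below 0 on all 4 arrays, at -0.26, -0.35, -0.09 and -0.07, with a mean of -0.19 ± 0.14 just beyond the threshold (limma, adjusted p = 0.0541). Nkx6-2 and Nkx2-2, homeobox genes of the lineage, had means of -0.18 ± 0.26 and 0.03 ± 0.17. Tcf7l2, a Wnt pathway factor of newly formed oligodendrocytes, stayed between -0.10 and 0.11. In Sox10, Myrf, Nkx6-2 and Olig1 the lowest value was on array 2 and the highest on array 4, as for the myelin genes.

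Genes of precursors and newly formed cells had 1 fall among 5 (20%, against 12.7% of all features) and no rise (against 8.63%). These 5 genes did not share 1 order of arrays. Their medians were -0.04, -0.07, -0.09 and -0.05 on arrays 1 to 4, against -0.20, -0.29, 0.20 and 0.35 for the structural genes of myelin. Pdgfra, the growth factor receptor gene that marks precursors, read 0.06, -0.07, -0.14 and -0.17, with its lowest value on array 4. Its mean of -0.08 ± 0.10 had a 95% interval of -0.20 to 0.04 on the log2 scale. Gpr17, a receptor gene of cells about to differentiate, had its lowest value, -0.13, on array 4 and read 0.32 and 0.31 on arrays 2 and 3. Lhfpl3, a membrane protein gene of precursors, stayed between -0.09 and 0.16.

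Bcas1, which marks newly formed and myelinating cells, was the only gene of this group that passed. It read -0.72, -0.69, -0.22 and -0.05, below 0 on all 4 arrays, and fell by 0.42 ± 0.34 (limma, adjusted p = 0.0406). Its value was -0.32, -0.33 and -0.49 without array 1, 2 and 3, each with its call lost, and it passed at -0.54 without array 4. Enpp6, a choline phosphodiesterase gene of newly formed cells, read -0.10, -0.39, 0.13 and 0.23 and did not pass. Its lowest value was on array 2 and its highest on array 4, as for most structural genes of myelin. Lingo1, whose product on neurons and oligodendrocytes restrains differentiation, read 0.14, 0.08, -0.10 and -0.26 and did not pass. Its values were above 0 on arrays 1 and 2 and below 0 on arrays 3 and 4, the reverse of Mag, Cldn11 and Cnp.

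For 29 of the 34 genes the 95% interval of the mean ratio, as measured after loess, lay within a 1.5-fold difference in either direction. The exceptions were Sox10, Bcas1, Gjb1, Opalin and Trf. The interval of Opalin ran from -0.74 to 0.14 and that of Trf from -0.91 to 0.22, so differences of that size lay within their intervals. The interval of Myrf, -0.33 to -0.06, did not hold the -0.42 obtained with local background subtracted. Because measured ratios were compressed, the intervals of the 34 genes do not bound the true differences. They also hold only for loess: with median centring Mobp, Plekhb1 and Car2, all among the 29, stood at -0.69, -0.70 and -0.70, beyond 1.5-fold.

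The promoters of 4 of the 5 genes that rose are shown as examples of genes above 0 on all 4 arrays. That of Mbp, which was also above 0 on all 4, is not shown here. RefSeq sequences of 250 bases before to 50 bases after a gene's start were matched for 24 of the 34 genes, in 35 windows on the build GRCm38.p6. They were searched on both strands for ACAATG and ACAAAG, which SOX factors bind, and for the E-boxes CAGATG and CAGCTG, which OLIG factors can bind. At least 1 of the SOX motifs was in 17 of the 35 windows (48.6%), against 28.6% of all 32851 promoter windows, and at least 1 of the E-boxes in 10 (28.6%), against 30.6%. Windows of 1 gene can overlap, and a match is only a match of letters. Each sequence is written from 5′ to 3′ on the strand of its gene, with matches in capitals. Of several windows of a gene the first listed is shown. The window shown for Tspan2 holds a CAGATG E-box on the opposite strand and that for Gal3st1 an ACAATG on its own strand. That of Olig2 holds an ACAATG on the opposite strand, while none of the searched letters are in that of Mal. The second window of Tspan2, not shown, holds an ACAAAG and no searched E-box. Of the other windows of Gal3st1, not shown, the second holds an ACAATG and the third none of the searched letters.
Mal, chr2:127656646-127656945, minus strand: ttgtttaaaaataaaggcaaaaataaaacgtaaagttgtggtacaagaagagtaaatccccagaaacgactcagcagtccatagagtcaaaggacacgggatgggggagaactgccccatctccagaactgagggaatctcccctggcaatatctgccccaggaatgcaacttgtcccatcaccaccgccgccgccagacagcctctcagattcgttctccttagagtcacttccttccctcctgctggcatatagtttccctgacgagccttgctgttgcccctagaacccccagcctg
Tspan2, chr3:102734520-102734819, plus strand: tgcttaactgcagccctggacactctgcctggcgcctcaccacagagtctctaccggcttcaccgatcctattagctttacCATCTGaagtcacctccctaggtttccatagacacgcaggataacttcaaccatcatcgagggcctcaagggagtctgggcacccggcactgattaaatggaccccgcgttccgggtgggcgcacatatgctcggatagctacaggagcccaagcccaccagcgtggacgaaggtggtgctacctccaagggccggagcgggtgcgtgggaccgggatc
Gal3st1, chr11:3983386-3983685, plus strand: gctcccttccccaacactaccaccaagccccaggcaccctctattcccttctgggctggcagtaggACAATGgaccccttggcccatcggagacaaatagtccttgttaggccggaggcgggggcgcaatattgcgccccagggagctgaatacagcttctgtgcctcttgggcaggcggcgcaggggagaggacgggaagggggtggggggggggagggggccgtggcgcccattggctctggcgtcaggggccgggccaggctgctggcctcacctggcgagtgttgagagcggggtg
Olig2, chr16:91225300-91225599, plus strand: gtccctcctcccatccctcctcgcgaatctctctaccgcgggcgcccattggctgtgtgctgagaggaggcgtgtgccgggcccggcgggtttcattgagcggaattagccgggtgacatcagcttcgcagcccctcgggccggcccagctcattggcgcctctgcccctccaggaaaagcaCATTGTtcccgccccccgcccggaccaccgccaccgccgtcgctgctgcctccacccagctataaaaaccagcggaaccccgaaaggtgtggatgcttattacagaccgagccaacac

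Ratios alone do not show which sample of an array was high or low, so the channels were also read as 8 samples, each gene's log2 intensity being taken relative to its mean over the 8. The medians of the 34 genes were -0.05, -0.24, 0.03 and 0.16 in knockout samples 1 to 4 and 0.08, 0.03, -0.03 and -0.02 in wild-type samples 1 to 4. The knockout samples thus spread over a wider range than the wild-type samples. The SD was larger among the knockout than among the wild-type samples for 32 of the 34 genes (94.1%, against 62.2% of all features), with median SDs of 0.22 and 0.10. All 14 structural genes and all 7 lipid and metabolite genes had this direction. With the scanner software's processed signals the count was also 32 (68.5% of all features), and with any 1 array left out it was 28 to 32.

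The SD among knockout samples was largest for Trf. Its level relative to the mean was -0.72, -0.75, 0.37 and 0.41 in the knockout samples and 0.23, 0.28, 0.06 and 0.13 in the wild-type samples. Mag gave -0.21, -0.26, 0.22 and 0.30 in the knockout samples and 0.07, 0.05, -0.04 and -0.12 in the wild-type samples. For both genes knockout samples 1 and 2 were below all wild-type samples and knockout samples 3 and 4 above all of them. For Sox10 the knockout samples were at -0.27, -0.64, -0.12 and 0.06 and the wild-type samples at 0.41, 0.33, 0.05 and 0.18, so the groups overlapped only at knockout sample 4 and wild-type sample 3. The exceptions to the direction were Tcf7l2 and Pdgfra, whose SDs among the wild-type samples, 0.08 and 0.13, were the larger. Because all knockout samples carried Cy3, the spread of the genotype and that of the dye cannot be told apart.

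**Figure D2:**
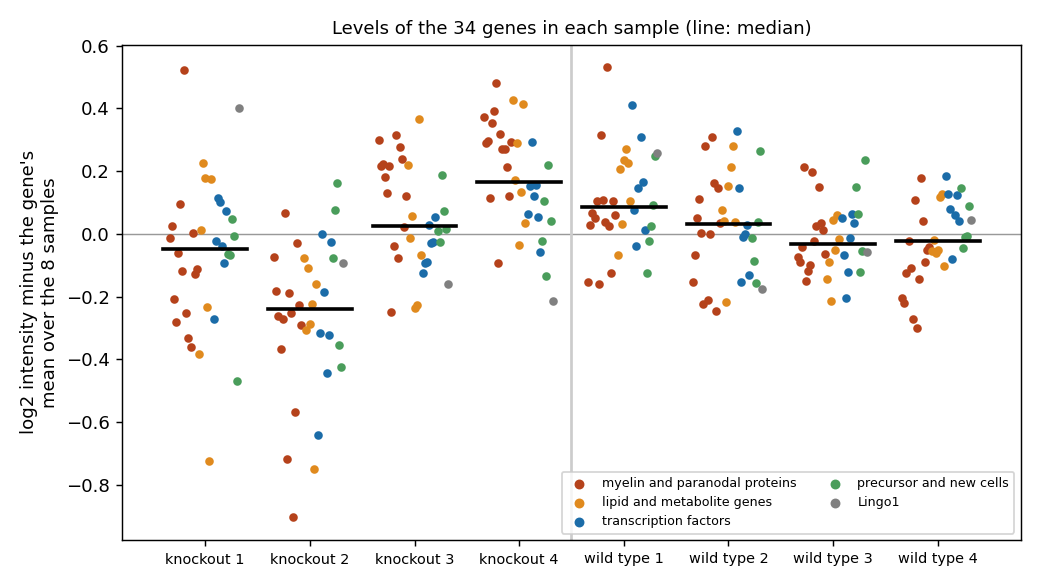
Log2 intensity of each of the 34 genes minus its mean over the 8 samples (y axis) in each knockout and wild-type sample (x axis), with 1 point per gene coloured by role and a line at the median. The medians run from -0.24 in knockout sample 2 to 0.16 in knockout sample 4, and from -0.03 to 0.08 in the wild-type samples.

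Markers of other tissue compartments also differed between arrays. Striatal markers, 10 of 10 measured, had medians of -0.23, -0.34, 0.16 and -0.04 on arrays 1 to 4, and 10 of 10 were below 0 on array 1 and on array 2. Erythrocyte genes had medians of -0.29, -0.63, -0.13 and 0.19, with the highest value on array 4 in 7 of 7, and neutrophil and monocyte genes -0.22, -0.30, -0.15 and 0.04. The SD was larger in the knockout samples for 7 of 7 erythrocyte genes, 9 of 10 endothelial, 8 of 10 neutrophil and monocyte, 8 of 10 fibroblast and mural, 13 of 15 astrocyte and 11 of 15 neuron genes. It was larger there for 8 of 12 microglia, 5 of 7 Schwann cell, 5 of 10 choroid plexus and 1 of 10 striatal markers, against the 62.2% of all features. Endothelial markers stood at -0.24, -0.21, 0.11 and 0.16 in knockout samples 1 to 4, so a wider spread among these samples was not particular to oligodendrocyte genes. Astrocyte, microglia and neuron markers had medians between -0.22 and 0.02 on every array. Choroid plexus markers, which matter for Enpp2 and Trf, had medians from -0.24 to 0.02, fibroblast and mural markers, which matter for Pdgfra, from -0.33 to -0.02, and endothelial markers from -0.21 to 0.02. The part of these differences in the oligodendrocyte values was not tested.

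**Figure D3:**
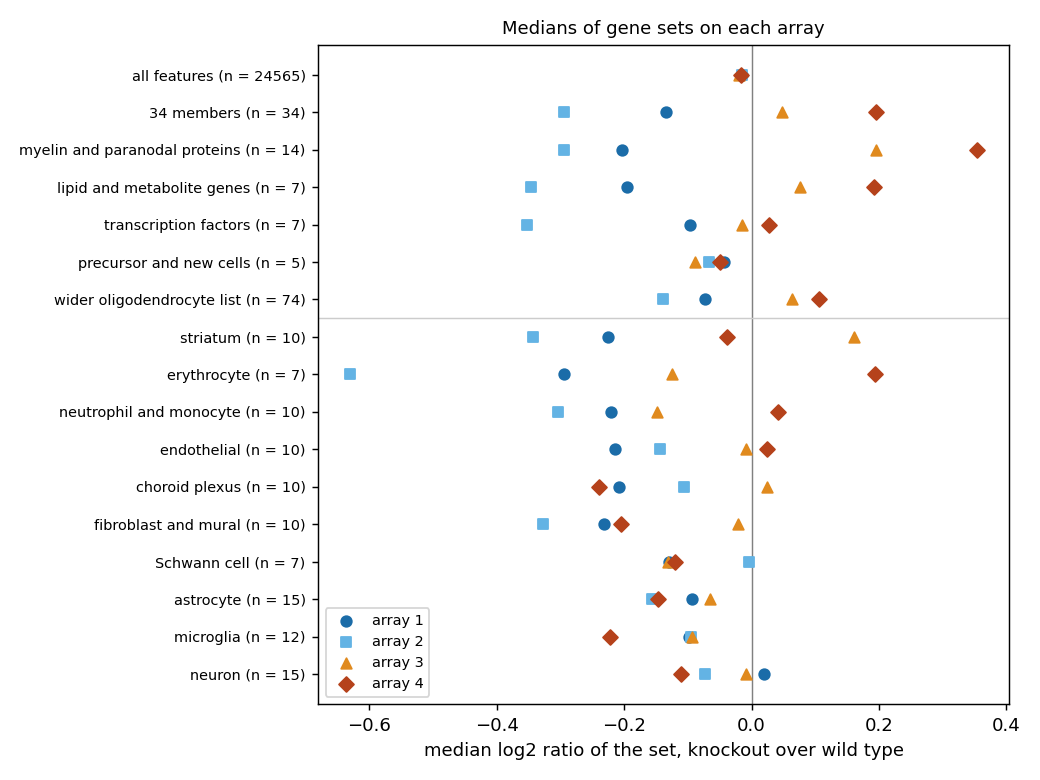
Median log2 ratio of knockout over wild type (x axis) of all features, the 34 genes, their roles, a wider oligodendrocyte list and markers of other cell types (y axis, with the number of genes measured), with 1 symbol per array. The medians of all features coincide near 0, while those of the structural myelin genes run from -0.29 on array 2 to 0.35 on array 4.

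In these lists of other cell types, as over all features (8.63% higher and 12.7% lower), falls outnumbered rises, and several lists rest on 1 or 2 calls. Microglia markers had 6 lower of 12, among them the protease gene Ctss at -0.45 ± 0.11, and astrocyte markers 4 lower of 15, among them Aldoc at -0.39 ± 0.09 (limma, adjusted p = 0.00329 and 0.00424). Neuron markers had 3 lower and 1 higher of 15, the latter being the neurofilament gene Nefm at 0.26 ± 0.04. Of neutrophil and monocyte genes 3 of 10 were lower, and of fibroblast and mural, choroid plexus and Schwann cell markers 2 each of 10, 10 and 7. Of erythrocyte genes 1 of 7 was lower, and of endothelial and striatal markers none of 10 each (limma, unadjusted p under 0.05 for 7 and 2). An unadjusted p under 0.05 was frequent, in 9159 of all 24565 features and 11 of the 34 genes (limma).

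A wider list of 77 other genes of the oligodendrocyte lineage gave 4 rises and 6 falls among the 74 tested (5.41% and 8.11%, against 8.63% and 12.7% of all features), with a median of -0.02. Of the other 3, 2 were not matched on the array and 1 did not pass the filter on dim probes. The highest of those that rose was Sox5, which restrains the maturation of oligodendrocyte precursors in mice and is also a gene of cortical neurons. It read 1.03, 0.72, 0.54 and 0.56, a mean of 0.71 ± 0.23 (limma, adjusted p = 0.00346). Aatk, a kinase gene, rose by 0.34 ± 0.06 and the ubiquitin ligase gene Rnf122 by 0.24 ± 0.05.

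The lowest of those that fell were Evi2a, Zfp488 and Sema6d. Evi2a, which lies within an intron of Nf1, read -0.57, -0.59, -0.36 and -0.14, a mean of -0.41 ± 0.21. Zfp488, a zinc finger gene that promotes oligodendrocyte differentiation, fell by 0.41 ± 0.14 and the semaphorin gene Sema6d by 0.37 ± 0.09. Each of the 3 was below 0 on all 4 arrays. In this list too array 4 held the highest value most often, in 37 of 74, and array 2 the lowest, in 41 (55.4%), and the SD was larger among the knockout samples in 61 (82.4%). The number of falls was 3 without array 1 and 2 without array 2.

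More than 1 probe was kept for 10 of the 34 genes, and all probes had the same sign in 4 of them, namely Tspan2, Plekhb1, Trf and Lhfpl3. The second probe of Tspan2 read 0.17, 0.06, 0.21 and 0.30, close to the first, with a mean of 0.18 ± 0.10. The other probes of Mbp did not repeat its rise: they had means of -0.11 ± 0.30 and 0.11 ± 0.25, and the mean over all its probes was 0.10 (limma, adjusted p = 0.482). Like the first probe, both were higher on arrays 3 and 4 than on arrays 1 and 2. The probes of Ermn disagreed most. The brighter had a mean of 0.10 ± 0.28, while the dimmer read -0.53, -0.62, -0.38 and -0.12, with a mean of -0.41 ± 0.22 (limma over all kept probes, adjusted p = 0.0145). Which transcripts each probe measured was not tested.

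**Figure D4:**
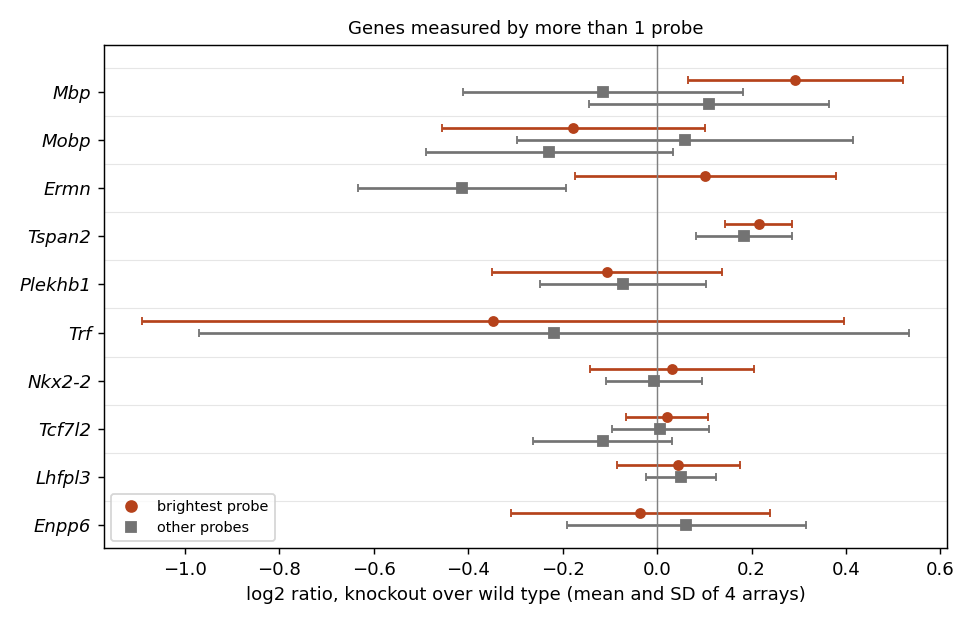
Mean log2 ratio of knockout over wild type with its SD over 4 arrays (x axis) for each probe of the 10 genes that had more than 1 (y axis), the brightest probe as a circle and the others as squares. The probes of Tspan2 lie at 0.21 and 0.18, whereas those of Ermn lie at 0.10 and -0.41 and those of Mbp at 0.29, -0.11 and 0.11.

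**Figure D5:**
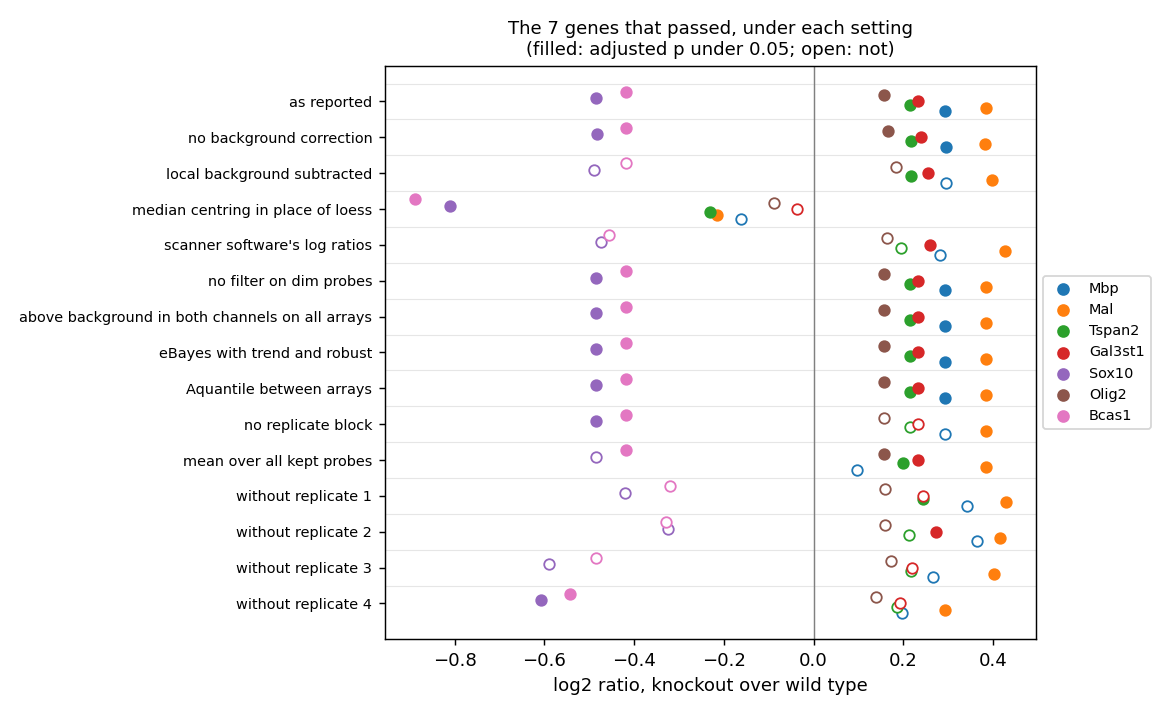
Log2 ratio of knockout over wild type (x axis) of the 7 genes that passed, under each way of processing the arrays (y axis), filled where the adjusted p was under 0.05 and open where it was not. Only median centring moves the 5 genes that rose to below 0, and Mal is filled in every row.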

How the data were processed

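Total RNA of the injured cortex was compared on 4 2-colour Agilent mouse arrays. Per the labels' protocols, 200 ng was labelled per sample by linear amplification, but that text speaks of plant shoots, so it may not describe these samples. Groups, dyes and replicate numbers 1 to 4 came from the labels. Per the file headers, spot intensities come from Agilent Feature Extraction, version 11.0.1.1. The version in the submitters' processing notes is 10.7.3.1. The deposited log10 ratio per spot is processed Cy5 over Cy3, and the deposited flags are other values of 0 or 1. Values in the deposited series matrix are on a log2 scale. They matched processed Cy5 over Cy3 to within 0.001 at each of 39030 single-spot probes, so their sign was turned here. Their column medians were -0.05, -0.06, -0.04 and -0.03.

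Median spot and background signals were corrected by normexp (offset 50) and normalized by loess in limma 3.58.1 (R 4.3.3), with control spots at weight 0. The 139 to 186 outlier spots per array were left out, and spots of a probe were averaged. A probe was kept if well above background on at least 3 of 4 arrays in either channel (30259 of 39429 probes). Accessions were named through RefSeq genes of GRCm38.p6 (27427 probes). The brightest kept probe stood for a gene. Ratios were tested against 0 with lmFit and eBayes, with Benjamini-Hochberg adjustment over all 24565 features. The array thereby acted as the block that pairs 2 samples. Levels by sample used loess and Aquantile. The steps were tested on simulated data. Lists were described by counts and medians and not tested.

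The members and lists were chosen with earlier results of these data known. The text names all 34 members, Ndrg2, the 3 highest and 3 lowest that passed in the wider list, and, of other lists, some genes with the smallest p. Genes named among the other observations were chosen after their values were seen. One gene of these lists is not reported here. The number of arrays limits the precision.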

Additional observations from a re-analysis of the deposited data

How the results depend on the processing

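The 15 alternatives were applied to each of the 34 genes and to the counts. With local background subtracted, 3 members were higher and 0 lower, and over all features 1341 and 1727, against 2120 and 3109 as reported. The 3 members higher there were Mal, Tspan2 and Gal3st1. With the scanner software's log ratios, and with the series matrix, which holds the same values, 2 members were higher and 0 lower. Over all features 1686 were then higher and 1751 lower. With local background subtracted, and with the scanner software's log ratios, 3 genes of the wider list were lower. With no replicate block, both channels being separate samples, 1 member was higher and 2, Sox10 and Bcas1, were lower. Over all features 1260 were higher and 1561 lower in that setting. Averaging all kept probes of a gene left 4 members higher and 1 lower. With 1 array left out, the members higher numbered 1 to 2 and those lower 0 to 4. Over all features 808 to 1264 were then higher and 1219 to 1918 lower, and in the wider list 2 to 5 were lower.

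With median centring in place of loess, 0 members were higher and 25 lower, with a median of -0.37; 49 genes of the wider list were lower, and over all features 6329 were higher and 13177 lower. Among genes called in either setting, the sign turned for Mbp (-0.16), Mag (-0.48), Cnp (-0.37), Mal (-0.22), Ermn (-0.40), Cldn11 (-0.42), Tspan2 (-0.23), Ppp1r14a (-0.32), Gal3st1 (-0.037), Olig2 (-0.088), Lhfpl3 (-0.22) and Gpr17 (-0.25). It also turned for Mog (-0.12), Ugt8a (-0.17), Nkx2-2 (-0.08) and Myrf (0.12), which passed in neither. Features of like brightness moved the same way, since this setting leaves the trend of the ratio with intensity in place. No other setting turned a sign of a call.

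Chosen after the data were seen, the counts of members highest on array 4 (25 to 27) and lowest on array 2 (16 to 21) were recomputed under 4 settings, with median centring giving the lowest of each. The share of all features highest on array 4 was 18.8% with median centring and 21.3 to 23.2% otherwise. For the lowest on array 2 that share, 25.2% as reported, was not recomputed.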

Other observations

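Values below were chosen after they were seen. In the wider oligodendrocyte list the largest spreads between arrays belonged to Klk6 and Arrdc2. Klk6, a secreted protease gene of mature oligodendrocytes, read -1.29, -1.36, 0.21 and -0.23 on arrays 1 to 4, with a mean of -0.67 ± 0.78 that did not pass (limma, adjusted p = 0.100). Arrdc2, an arrestin domain gene, ran the opposite way, at 0.51, 0.52, -0.60 and -0.54, with a mean of -0.03 ± 0.63. Gsn, the actin-severing gelsolin gene, read 0.05, 0.04, 0.47 and 0.69 and did not pass either (limma, adjusted p = 0.0815).

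Outside the lineage, the neutrophil gene S100a8 read -1.28, -1.18, -0.30 and 0.04 on the same arrays, and the striatal gene Adora2a, a receptor for adenosine, read -0.68, -1.13, 0.24 and -0.03. The early response gene Egr2, listed as a Schwann cell marker, was below 0 on all 4 arrays, at -1.13, -0.86, -0.13 and -0.29, with a mean of -0.60 ± 0.47 (limma, adjusted p = 0.0344).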
